A study of Mus musculus with 4 samples.

Results

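Chromatin at 10 endothelial genes was examined in ATAC-seq peak lists of embryonic mouse limbs: Kdr, Flt1, Tek, Cdh5, Pecam1, Erg, Fli1, Sox17, Sox18 and Sox7. The genes were taken as a named set out of 22367 protein-coding genes of GENCODE M1 on the autosomes and sex chromosomes. All 10 were found in the annotation by symbol. ATAC-seq marks open chromatin, where the Tn5 transposase can cut and tag DNA. Forelimb and hindlimb tissue of E11.5 embryos from a c57bl6.J X 129S6.sv cross was made into single cells with trypsin and fixed before transposition. A group of 2 libraries carried a stop cassette insertion, titled 3xpA, in a study of the lncRNA Maenli and the engrailed-1 gene. The other group of 2 libraries was wild type. The labels give neither the position or zygosity of the insertion nor the number of embryos in a library.

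Endothelial cells line blood vessels and are a small part of the early limb, which is mostly mesenchyme under a surface ectoderm. They sense VEGF through the receptors Kdr and Flt1 and angiopoietins through Tek, and they hold to each other through the adhesion molecules Cdh5 and Pecam1. Their gene expression depends on ETS factors such as Erg and Fli1 and on the SoxF factors Sox7, Sox17 and Sox18. Several of these genes are also used elsewhere: Erg in cartilage, Fli1 and Erg in blood, Pecam1 in platelets and leukocytes. In a bulk limb library, fewer endothelial cells and less open chromatin per endothelial cell cannot be told apart. The lists were therefore read for a narrower matter: where summits were called at these genes, in how many libraries, and at what rank.

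Each list gives positions of 1 bp, called summits here, with a score. The 4 lists held 51701 to 107827 summits, with stop cassette replicate 2 the longest and wild-type replicate 1 the shortest. Read counts are not used here, so depth is unknown. A score was turned into a percentile within its own list, from 0 for the weakest to 100 for the strongest summit. The peak names call the stop cassette lists R1 and R2 but the wild-type lists R1-1 and R1-2. Nothing in the labels says that libraries came from separate embryos, so any spread between replicates may be technical. Of 30 limb mesenchyme genes, 23 had a summit within 1 kb of a start in all 4 lists, Prrx1 at percentiles of 47.0 and 63.2 with the cassette and 8.30 and 64.6 in wild type. Hoxd13 had percentiles of 54.8 and 59.5 against 56.6 and 57.9. Hoxa11 and Tbx5, which also mark limb mesenchyme, had none in any list, and neither had the liver markers Alb, Afp and Apoa1. The starts of Hoxd13 and of the liver markers say little about the labelled tissue. Of starts rich in CpG, as that of Hoxd13, 92.5% were in all 4 lists. Of starts poor in CpG, as those of the liver markers, 67.1% were in none. The start of Prrx1 is also poor in CpG, and 22.2% of such starts were in all 4 lists. That of Hoxa11 is rich in CpG, and 2.16% of such starts were in no list.

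The regions that carry the findings are shown first. For each gene the strongest region at a start and the strongest away from any start were picked, where a region is a set of summits, each extended by 250 bp on both sides, that overlap across lists. The 7 sequences below come from regions held by all 4 lists. They give 60 bp on each side of the strongest summit on the plus strand of mm9. Capitals mark matches, on either strand, to short letter strings typical of factor families that act in endothelium or blood. The string for the ETS family was AGGAAG. For the family that includes Gata1 and Gata2 the string searched was AGATAA. A string for forkhead and ETS factors side by side, which overlaps the ETS letters in part, was AACAGGA. For the Sox family the string was ACAATG, and neither this nor the forkhead string occurs in these stretches.
Kdr intron 10, chr5:76358318-76358438: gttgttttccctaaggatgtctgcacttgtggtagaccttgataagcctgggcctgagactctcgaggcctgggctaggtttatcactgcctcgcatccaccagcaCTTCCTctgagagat
Flt1 intron 10, chr5:148469563-148469683: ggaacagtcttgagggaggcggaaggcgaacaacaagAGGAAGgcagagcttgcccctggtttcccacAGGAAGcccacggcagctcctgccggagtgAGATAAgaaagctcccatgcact
Erg intron 1 near its first start, chr16:95807199-95807319: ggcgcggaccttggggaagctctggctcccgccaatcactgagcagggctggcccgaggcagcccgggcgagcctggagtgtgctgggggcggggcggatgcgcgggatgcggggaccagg
Erg inner intron, chr16:95691415-95691535: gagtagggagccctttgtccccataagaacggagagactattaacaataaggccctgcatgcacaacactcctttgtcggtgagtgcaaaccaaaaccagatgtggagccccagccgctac
Cdh5 upstream, chr8:106600970-106601090: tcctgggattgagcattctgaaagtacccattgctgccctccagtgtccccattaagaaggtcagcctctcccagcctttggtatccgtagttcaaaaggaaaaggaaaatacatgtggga
Fli1 downstream, chr9:32217420-32217540: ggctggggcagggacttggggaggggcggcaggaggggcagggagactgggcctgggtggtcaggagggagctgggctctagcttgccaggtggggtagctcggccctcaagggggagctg
Sox18 side, in an intron of Prpf6, chr2:181380519-181380639: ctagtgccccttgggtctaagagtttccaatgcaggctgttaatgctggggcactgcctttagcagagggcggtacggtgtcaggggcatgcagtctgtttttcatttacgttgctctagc
The Kdr and Flt1 stretches hold ETS letters, and the Flt1 stretch also holds GATA letters. The other 5 stretches hold none of the letters searched. The Erg stretch near its first start and the Fli1 stretch have the highest GC contents, 75.2% and 71.9%, against 47.9% to 58.7% in the other 5. A match in these letters describes the sequence and does not show that a factor binds there.

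At the gene starts, 4 of the 10 endothelial genes had a summit within 1 kb of an annotated start in stop cassette replicate 1, 7 in stop cassette replicate 2, 4 in wild-type replicate 1 and 4 in wild-type replicate 2. Among all protein-coding genes the shares were 61.5%, 64.5%, 59.1% and 61.6% in the same order. The endothelial genes were thus below the background in 3 lists and near it in the longest one. Only Kdr, Flt1 and Erg had such a summit in all 4 lists, or 30% of the genes, against 57.5% of protein-coding genes. Cdh5, Pecam1 and Fli1 had one in no list, which held for 34.5% of protein-coding genes. When every list was reduced to its 51701 strongest summits, stop cassette replicate 2 held 3 of the genes and the count over any list was 4, of which Kdr, Flt1 and Erg were in all 4. In these shortened lists the backgrounds were 57.7% and 59.8% for the stop cassette lists and 59.1% and 59.4% for the wild-type lists.

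**Figure D1:**
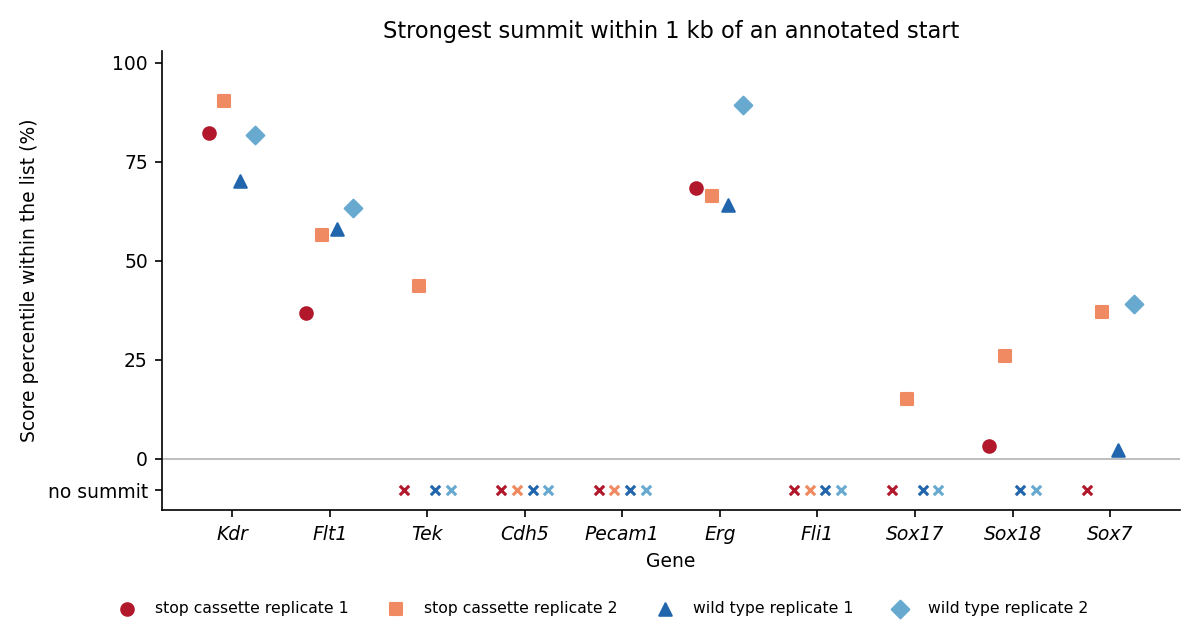
Score percentile, within its own list, of the strongest summit within 1 kb of an annotated start of each gene, 1 point per library; crosses under the line mark lists without such a summit. Kdr lies between 70.2 and 90.3 in all 4 libraries, while Cdh5, Pecam1 and Fli1 show 4 crosses each.

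Among the receptors, Kdr (ENSMUSG00000062960.6, chr5:76328852-76374483, minus strand) encodes the main VEGF receptor of endothelium. Its strongest start summit had percentiles of 82.2 and 90.3 with the cassette, and of 70.2 and 81.7 in wild type. These summits lay 74, 8, 2 and 44 bp from an annotated start, and each list held 3 or 4 summits within 1 kb. The groups did not overlap at the Kdr start, with a mean of 86.2 ± 5.72 for the cassette and 76.0 ± 8.16 for wild type (SD over 2 libraries each; two-sided exact permutation test, p = 0.33). Such a lack of overlap is common here: it held for 45.6% of the 12860 genes with a start summit in all lists, and 41.2% were higher with the cassette. At equal list length the Kdr percentiles were 72.8 and 79.7 against 70.2 and 75.8, and the groups overlapped. The backgrounds were then 40.1%, and 20.2% for genes higher with the cassette.

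A Kdr region in intron 10 of its coding transcripts was also held by all 4 lists, at chr5:76357709-76359093, 16105 bp from the 5′ end of the gene. An exon of a non-coding Kdr transcript is annotated at its summit too. It ranked at the 87.2 and 78.7 percentiles with the cassette and at 16.0 and 60.9 in wild type. Both stop cassette values lay above both wild-type values, with the lowest in the shortest list. Of the 10876 regions away from starts in all 4 lists, 39.1% had genotypes that did not overlap, and 36.4% were higher with the cassette. At equal length the Kdr region ranked at 80.4 and 55.5 against 16.0 and 48.2. An enhancer of Kdr active in arterial endothelium has been described in this intron, and whether it is the same sequence was not tested. The Kdr window held only 1 further region, in the stop cassette lists alone.

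Flt1 (ENSMUSG00000029648.7, chr5:148373180-148537587, minus strand) encodes a VEGF receptor that also acts as a decoy for the ligand. The region at its main start was held by stop cassette replicate 2 and both wild-type lists, at the 56.4, 58.1 and 63.3 percentiles. Stop cassette replicate 1 had no summit there. Its Flt1 summit, at the 36.8 percentile, lay 201 bp from the start of a processed transcript inside the gene and dropped out with starts of protein-coding transcripts only. The mean at any Flt1 start was 46.6 ± 13.8 for the cassette and 60.7 ± 3.65 for wild type, and the groups did not overlap (SD over 2 libraries each; exact permutation p = 0.33). At equal length the Flt1 percentiles were 3.35 and 9.03 for the cassette and 58.1 and 51.3 for wild type, so the gap was wider. The value of 3.35 again came from that start inside the gene, so the gap is not at a single site. A lack of overlap held for 45.6% of genes as deposited and 40.1% at equal length. Genes higher with the cassette made up 41.2% and 20.2%, so the direction of Flt1 was the rarer one as deposited. A Flt1 region in intron 10, chr5:148469373-148470066, was held by all 4 lists. It ranked at 77.8 and 59.2 with the cassette and at 31.7 and 7.06 in wild type. At equal length it was left in 3 lists, without wild-type replicate 2.

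Tek (ENSMUSG00000006386.9, chr4:94405980-94541667, plus strand) encodes the angiopoietin receptor Tie2. A Tek start summit was present in stop cassette replicate 2 alone, at the 43.6 percentile and 392 bp from a start. No region in the Tek window was held by all 4 lists. An intronic region 13248 bp from the 5′ end was held by 3 lists, at the 21.6 and 6.87 percentiles with the cassette and 36.9 in wild-type replicate 2. The strongest region away from the start, at chr4:94431856-94432812, was held by both replicate 2 lists, at 59.2 and 31.1. Tek had the thinnest window of the receptors, with 3 and 6 summits in the stop cassette lists and 1 and 3 in the wild-type lists.

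The adhesion genes had no summit at a start in any list. Cdh5 (ENSMUSG00000031871.8, chr8:106625525-106668402, plus strand) encodes VE-cadherin, the cadherin of endothelial junctions. Its nearest summit lay 10419 and 2758 bp from the start in the stop cassette lists and 24554 and 24327 bp from it in the wild-type lists. A Cdh5 region upstream of the gene, chr8:106600721-106601460, was held by all 4 lists at closely spaced percentiles, 58.0 and 57.7 with the cassette and 56.4 and 50.7 in wild type. At equal length it stayed in all 4 lists, at 35.7 and 11.8 with the cassette and 56.4 and 34.7 in wild type. These values were spread more widely, and the groups overlapped. A region 44824 bp downstream of the start was held by both stop cassette lists, at 64.7 and 88.8, and by wild-type replicate 1, at 28.2. The strongest region of the Cdh5 window by its mean rank belonged to the start of a neighbour, Bean1, at 66.5 to 87.4 in the 4 lists.

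Pecam1 (ENSMUSG00000020717.11, chr11:106515531-106611942, minus strand) encodes the surface marker CD31. The annotation lists 7 distinct starts of the gene, and 0 of them had a summit within 1 kb. The Pecam1 window held 15 and 18 summits in the stop cassette lists and 11 and 13 in the wild-type lists, but 12, 12, 11 and 11 of these lay at starts of other genes. Away from starts the Pecam1 window had 3 and 6 summits with the cassette and 0 and 2 in wild type. No Pecam1 region away from starts was held by all 4 lists. The strongest one, intronic at chr11:106584133-106584831, was found with the cassette alone, at 75.7 and 71.7. It was found in both replicates at equal length too, at 62.9 and 41.0. Of all regions away from starts, 11.7% were found in the 2 lists with the cassette and in no list of wild type.

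Of the ETS factors, Erg (ENSMUSG00000040732.11, chr16:95580776-95808200, minus strand) had a start summit in all 4 lists. It ranked at 68.4 and 66.4 with the cassette and at 64.0 and 89.2 in wild type. The groups overlapped, with means of 67.4 ± 1.42 and 76.6 ± 17.9 (SD over 2 libraries each; exact permutation p = 1). At equal length the Erg percentiles were 51.6 and 29.8 for the cassette and 64.0 and 85.7 for wild type. The groups then did not overlap (background 40.1%). The strongest summit lay 938 to 981 bp inside the first annotated start, close to the limit of 1 kb, and in 3 lists a weaker summit was nearer. With a limit of 500 bp Erg was no longer called in all lists. An inner Erg region, chr16:95690920-95692106, was also held by all 4 lists, at 58.0 and 80.9 with the cassette and 58.1 and 73.5 in wild type. It is intronic in 4 coding transcripts and lies 10520 bp from the nearest Erg start. Both Erg regions stayed in all 4 lists at equal length. A region beyond the 3′ end was held by 3 lists, at 69.8, 66.6 and 56.2, and was missing from stop cassette replicate 1.

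Fli1 (ENSMUSG00000016087.6, chr9:32229793-32348974, minus strand) is the close relative of Erg. It has 1 annotated start in a CpG-rich stretch, and no list had a summit within 1 kb of it. Only 2.16% of the 11233 genes with CpG-rich starts shared this. The nearest Fli1 summits lay 1658 bp upstream of the start in stop cassette replicate 2 and 1888 bp upstream in wild-type replicate 1, at the 11.1 and 21.1 percentiles. In the other 2 lists the nearest was 9404 and 9436 bp upstream, in a region held by 3 lists at 62.5, 76.8 and 74.8. A Fli1 region beyond the 3′ end, chr9:32216498-32217740, was held by all 4 lists, at 34.7 and 74.5 with the cassette and 51.8 and 72.7 in wild type. A region in intron 1, 45923 bp from the start, was held by all 4 too, at 18.2 and 64.2 and at 8.07 and 55.2. In both regions the replicate 2 lists gave the higher ranks. At equal length the region beyond the 3′ end ranked at 0.126 in stop cassette replicate 1.

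The SoxF genes had few and low start summits. Sox17 (ENSMUSG00000025902.7, chr1:4481009-4486494, minus strand) marks arterial endothelium and endoderm. It had a start summit in stop cassette replicate 2 alone, at the 15.0 percentile. A Sox17 region far upstream, with its summit at -47778 bp from the 5′ end, chr1:4533757-4535086, was held by 3 lists. It ranked at 0.867 and 85.4 with the cassette and at 74.4 in wild-type replicate 2, so it was high in the replicate 2 lists, at the bottom of one list and absent from the other.

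Sox18 (ENSMUSG00000046470.5, chr2:181404541-181406345, minus strand) is needed in lymphatic and blood vessel endothelium. Its start summits were at 3.17 and 25.8 in the stop cassette lists. The wild-type lists held summits of the same region at 10.7 and 9.74, but 1204 and 1116 bp from the start, just outside the limit, while those of the stop cassette lists were 629 and 935 bp from it. With a limit of 2 kb Sox18 joined the genes called in all 4 lists. The Sox18 window is crowded, and 7, 9, 5 and 7 of its 12, 21, 9 and 12 summits lay at starts of other genes. The strongest Sox18 region away from starts, chr2:181379652-181381075, lay in an intron of the neighbour Prpf6. It ranked at 69.4 and 83.7 with the cassette and 49.3 and 69.7 in wild type.

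Sox7 (ENSMUSG00000063060.5, chr14:64562511-64569569, plus strand) acts with its relatives in early vessels. It had a start summit in 3 lists, at 37.0 in stop cassette replicate 2 and at 2.27 and 39.1 in wild type. The Sox7 window was nearly empty otherwise, with 1 summit in all in each wild-type list. The regions away from its start were seen in stop cassette replicate 1 alone.

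Promoters rich in CpG dinucleotides are open in most cell types, so the starts were split by the ratio of observed to expected CpG in the 1 kb around them, at 0.6. A gene with several annotated starts was classed by the start with the highest ratio, here and in the backgrounds. Kdr, Flt1, Fli1, Sox18 and Sox7 were CpG-rich, and Tek, Cdh5, Pecam1, Erg and Sox17 were CpG-poor. The CpG-rich endothelial starts had a summit for 3, 4, 3 and 3 of 5 genes in stop cassette replicates 1 and 2 and wild-type replicates 1 and 2. The background for CpG-rich starts was 95.3%, 97.3%, 93.8% and 95.8%. The CpG-poor endothelial starts had one for 1, 3, 1 and 1 of 5 genes, and the background was 27.5%, 31.3%, 24.0% and 27.0%. By the number of lists, 2 CpG-rich endothelial starts were in all 4 (background 92.5%), and 2 CpG-poor ones, those of Cdh5 and Pecam1, were in none (background 67.1%). The counts for CpG-rich starts thus lay below their background, and those for CpG-poor starts near it, save in stop cassette replicate 2. Erg is a borderline case, since the highest ratio over its annotated starts was 0.448 and the ratio was 0.616 at the summit called within 1 kb.

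Among the endothelial genes with a start summit, the median percentile was 52.6, 43.6, 61.0 and 72.5 in stop cassette replicates 1 and 2 and wild-type replicates 1 and 2, against 85.5 to 92.6 for all protein-coding genes with one. The limb mesenchyme genes, 29 transcription factors and Fgf10, gave medians of 53.8, 69.2, 52.6 and 64.2. The limb mesenchyme medians were thus below the level of all genes as well.

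The endothelial genes were set beside lists of further endothelial genes, blood genes, limb mesenchyme genes and liver genes. A further 40 endothelial genes, such as those of the VEGF, Notch and TGF-beta pathways and surface markers, had a start summit in all 4 lists for 19 genes and in no list for 12. That is 47.5% and 30%, beside 57.5% and 34.5% of all protein-coding genes. Of the CpG-poor ones, 5 of 23 were in all 4 lists (21.7%, background 22.2%). These 5, named after their values were seen, were Esam, Vwf, Cd34, Clec14a and S1pr1. Another 12 of the 23 were in no list (52.2%, background 67.1%). Those 12 were Tie1, Emcn, Eng, Robo4, Plvap, Nos3, Lyve1, Mmrn2, Icam2, Etv2, Gpr116 and Acvrl1. S1pr1, a receptor for sphingosine 1-phosphate, ranked at 87.5 and 98.4 with the cassette and 96.2 and 96.7 in wild type. Esam, a junction protein, ranked at 72.1 and 81.3 and at 73.3 and 87.9. Clec14a, a lectin of endothelium, ranked at 51.6 and 88.7 and at 48.5 and 82.7. Vwf and Cd34 ranked between 27.5 and 79.1 in the 4 lists. No further endothelial gene with a CpG-rich start lacked a summit in every list (background 2.16%). Of these 17 genes, 14 were in all 4 lists (82.4%, background 92.5%).

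Blood cells circulate through the vessels of the limb, and their genes were compared as another minor population. Of 25 blood genes 11 had a start summit in all 4 lists (44%, background 57.5%) and 9 in none (36%, background 34.5%). Among those with CpG-poor starts 8 of 22 were in all 4 lists (36.4%, background 22.2%). Gata1, the main factor of red cell precursors, ranked at 74.5 and 56.4 with the cassette and at 10.4 and 26.0 in wild type. Klf1, an activator of globin genes, ranked at 84.8 and 67.7 with the cassette, at 22.8 in wild-type replicate 1, and had no summit in wild-type replicate 2. Of genes active in leukocytes, Sfpi1 (also called Spi1), Ptprc, Csf1r, Cd68, Cx3cr1, Itgam and Laptm5 had no start summit in any list. Their starts are all CpG-poor, and 67.1% of such starts were in no list. Vav1 had a start summit in 1 list. Coro1a, at 89.3 and 89.1 with the cassette and 59.8 and 87.8 in wild type, and Ikzf1, at 86.2 and 88.5 and at 73.4 and 59.1, had one in all 4. The start of Ikzf1 is CpG-rich, and 92.5% of such starts were in all 4 lists. That of Coro1a is CpG-poor, and 22.2% of such starts were in all 4 lists. Over the 22 blood genes with CpG-poor starts, 12 and 13 had a start summit with the cassette and 9 and 10 in wild type. At equal length the counts were 12 and 10 against 9 and 10, and as deposited the background for such starts was also higher with the cassette (27.5% and 31.3% against 24.0% and 27.0%). The part of blood cells in the values of Kdr, Flt1, Erg and Fli1 was not tested. At equal length Gata1 ranked at 60.9 and 9.03 against 10.4 and 1.99, and the groups overlapped.

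Of the 30 limb mesenchyme genes 23 had a start summit in all 4 lists (76.7%) and 2 in none. Of the 25 liver genes, all with CpG-poor starts, 0 had one in all lists and 23 had one in none. The other 2 liver genes were Apob, in 3 lists, and Fga, in 2. The lists differ in promoter class, so these shares are not ranked: 24 of the 30 limb mesenchyme genes had CpG-rich starts. Of these 24, 20 were in all 4 lists (83.3%, background 92.5%), while the liver genes compare with 22.2% of CpG-poor starts. Of the 6 limb mesenchyme genes with CpG-poor starts, 3 were in all 4 lists (50%, background 22.2%). Another 1 of the 6 was in none (16.7%, background 67.1%).

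**Figure D2:**
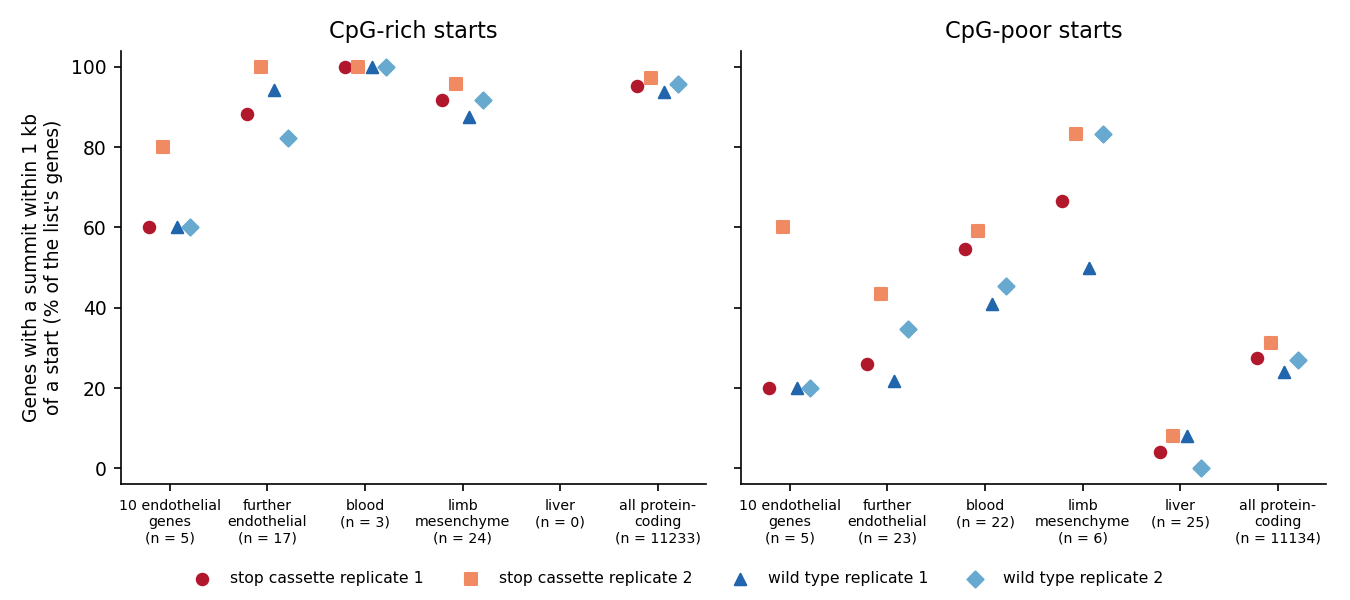
Percent of genes with a summit within 1 kb of a start in each library, for genes with CpG-rich starts (left) and CpG-poor starts (right), with the number of genes under each list. The 10 endothelial genes lie at 60% to 80% where starts are CpG-rich and all protein-coding genes lie above 93%, whereas for CpG-poor starts 3 endothelial points lie at 20% and 1 at 60%, and all protein-coding genes lie at 24.0% to 31.3%.

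Within 50 kb of the 10 gene bodies, 1.85 Mb in all, stop cassette replicate 1 had 73 summits and replicate 2 had 131, and wild-type replicates 1 and 2 had 48 and 62. As a share of each list this was 0.0923% (95% Wilson interval 0.0734% to 0.116%), 0.121% (0.102% to 0.144%), 0.0928% (0.0700% to 0.123%) and 0.0905% (0.0706% to 0.116%). The intervals cover counting error only. Of these summits 22, 24, 19 and 21 lay at starts of other genes, nearly the same number in each list. The summits away from any start numbered 43, 89, 23 and 34 and made most of the difference between lists. At equal length the windows held 33, 51, 48 and 45 summits, so stop cassette replicate 1 had the fewest and replicate 2 the most.

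By the median of summits in all places, the endothelial windows were sparse in 3 of 4 lists as deposited. Their median was 3.48, 7.20, 2.14 and 2.32 summits per 100 kb, against 5.70, 6.93, 3.75 and 4.72 over all protein-coding genes. At equal length they were sparse in all 4 lists, with 1.06, 2.2, 2.14 and 1.81 against 3.90, 3.65, 3.75 and 3.72. Regions away from starts, given below, were denser than over all genes when in any list, but not when in all 4. Sox18 stood at the 79.1 to 95.1 percentile of all genes by this density and Tek at the 17.1 to 21.6 percentile. All 10 endothelial genes had a higher mean number of summits with the cassette, and for 6 of them, Kdr, Flt1, Pecam1, Erg, Sox17 and Sox7, the groups did not overlap. The background for such a lack of overlap was 54.2%, and 53.0% for genes higher with the cassette. For Fli1 the numbers were 9 and 21 with the cassette and 7 and 10 in wild type (means 15 ± 8.49 and 8.5 ± 2.12, SD over 2 libraries each; exact permutation p = 0.67). At equal length only Flt1 had a higher mean with the cassette, while 5 genes had equal means and 4, Kdr, Erg, Fli1 and Sox7, had a lower one. The groups did not overlap there for Kdr, Fli1 and Sox7, all lower with the cassette. The background for such a lack of overlap was then 24.9%, and 14.2% for genes higher with the cassette. How many of all genes had a higher or a lower mean was not counted. The difference in numbers thus moved with list length. No p-value under 0.33 is possible with 2 against 2 libraries.

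**Figure D3:**
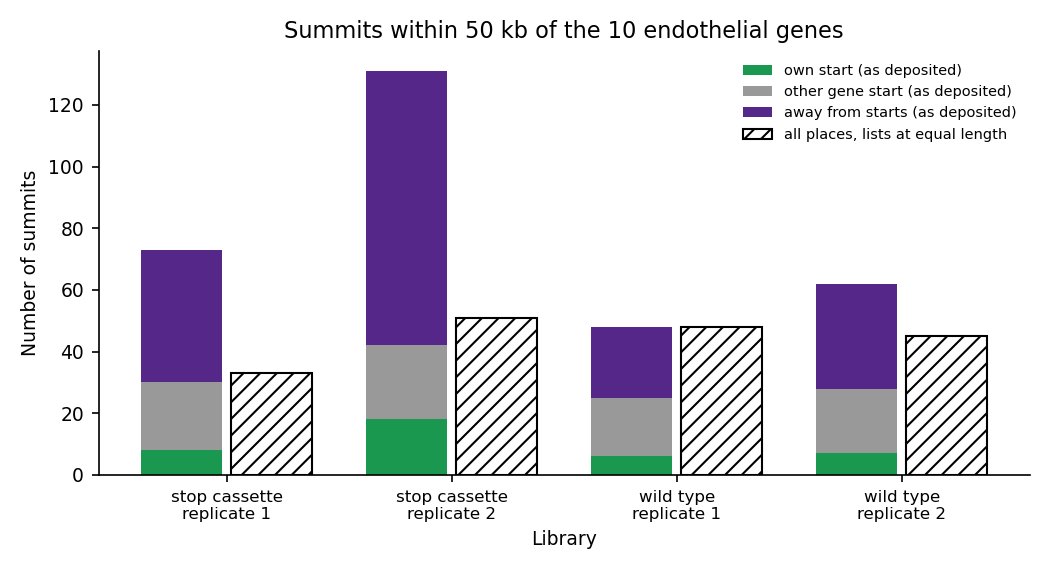
Number of summits within 50 kb of the 10 endothelial gene bodies in each library, stacked by place for the lists as deposited, and in total for lists reduced to equal length (hatched bars). Stop cassette replicate 2 stands out with 131 summits as deposited, while the hatched bars range from 33 to 51.

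The summits merged into 90 regions near the 10 genes. Of these 9 were at the genes' own starts, 10 at starts of other genes and 71 away from starts. All 4 lists held 18 regions (20%, background 32.0%), of which 3 were at own starts (Kdr, Erg and Sox18) and 6 at other starts. Away from starts all 4 lists held 9 of 71 (12.7%), against 19.2% of all regions away from starts. These 9 were the regions of Kdr, Flt1, Cdh5 and Erg described above, 2 regions of Fli1 and 3 of the Sox18 window. Tek, Pecam1, Sox17 and Sox7 had no such region. As deposited, the genotypes did not overlap in 4 of the 9, those of Kdr, Flt1 and Cdh5 and one of the Sox18 window. All 4 were higher with the cassette, beside the background of 36.4%. At equal length the genotypes overlapped at the Cdh5 region. A single list held 31 of the 71 (43.7%). Both stop cassette lists and no other held 11 (15.5%, background 11.7%), and both wild-type lists and no other held 1, in Tek (1.41%, background 0.354%). The Tek region ranked low, at 4.54 and 3.68. It began just beyond a region of stop cassette replicate 2 at the 61.5 percentile, so its class depends on the extension used for merging.

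By density, the endothelial windows had 38.5 regions away from starts per Mb and 4.88 per Mb in all 4 lists. Over the windows of all protein-coding genes the values were 26.5 and 5.14 per Mb. The further endothelial genes had 43.1 and 11.9 per Mb, the blood genes 53.5 and 14.0 and the limb mesenchyme genes 56.1 and 11.2. The liver genes had 25.5 and 8.0 per Mb, and all 4 lists held 21 of their 67 regions (31.3%). The density in all 4 lists near the 10 genes was thus the lowest of these lists, below that of the liver genes too. These densities were not tested. The median percentile of the 71 regions was 21.6 and 42.8 in the stop cassette lists and 34.4 and 50.7 in the wild-type lists, against 46.0, 47.8, 38.2 and 44.6 for all regions away from starts.

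**Figure D4:**
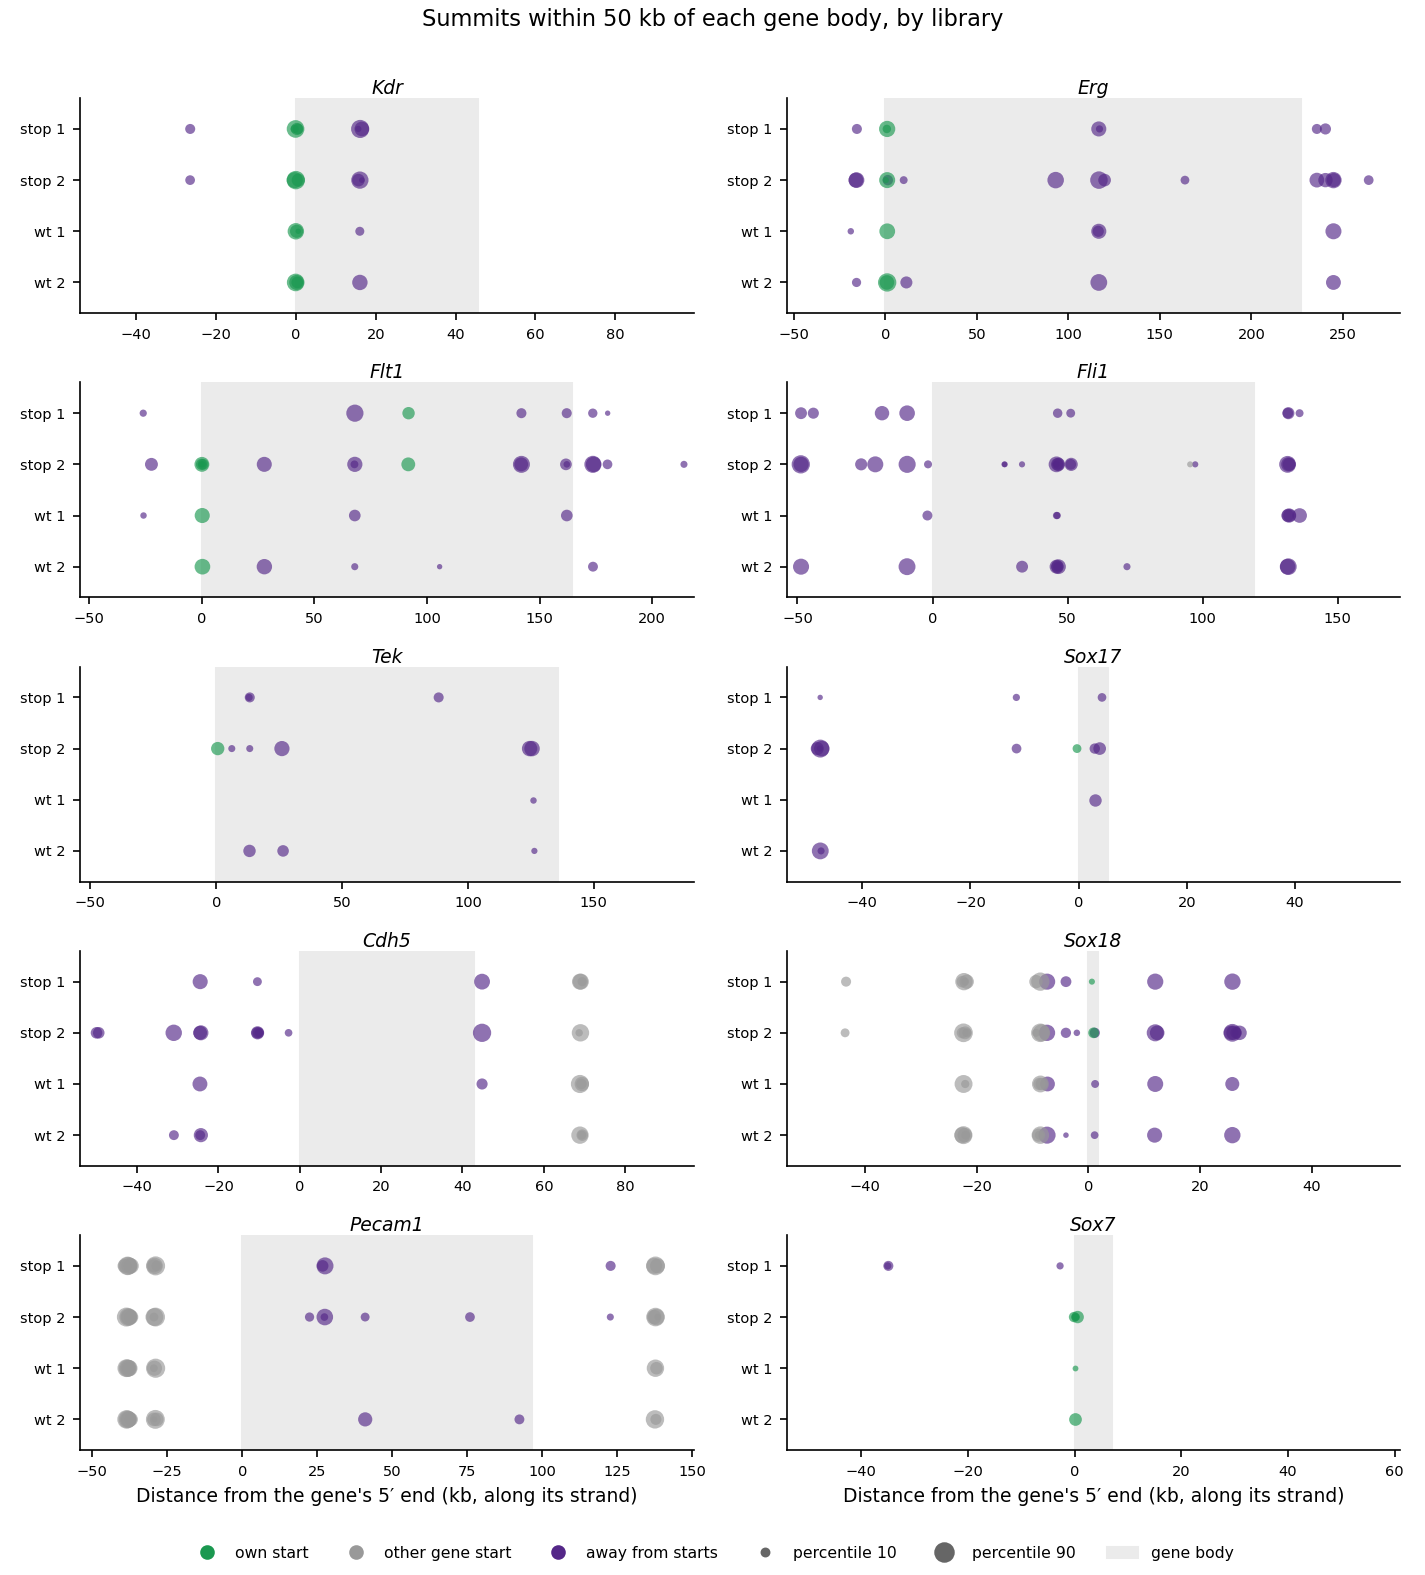
Summits within 50 kb of each gene body, by distance from the gene's 5′ end along its strand in kb, with 1 row per library (stop, stop cassette; wt, wild type; numbers are replicates), point size giving the percentile and colour the place. Columns of points present in all 4 rows are seen at the Kdr start and inside Kdr, at Erg, and 24495 bp upstream of Cdh5, whose gene body is empty in every row (5.88% of the genes at least as long had none).

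The letters of the 4 motifs were counted within 250 bp on each side of the strongest summit of each region away from starts, on both strands. ETS letters occurred in 39 of the 71 regions near the endothelial genes (54.9%), against 50.3% of 56416 such regions on placed chromosomes. The forkhead and ETS letters occurred in 9.86% against 12.1%, the SOX letters in 28.2% against 22.1%, and the GATA letters in 19.7% against 24.8%. Near the endothelial genes these shares were close to those of open regions in general. Among the 9 regions held by all 4 lists, 4 held ETS letters (44.4%, beside 51.1% of all such regions), 1 the forkhead and ETS letters (11%, beside 11%), 2 SOX letters (22.2%, beside 19.0%) and 3 GATA letters (33.3%, beside 22.4%).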

How the data were processed

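The 4 libraries were mapped to groups and replicate numbers by their titles. Peak lists were deposited per library, with 5 columns: chromosome, a summit of 1 bp, a name and a value. The deposited value was read as −log10 of a q-value, from its lowest value, between 1.302 and 1.307 in the 4 lists; the sources used here do not state it. Bowtie2 2.2.6 and Picard are named per the submitters' processing notes, and the build is mm9 per the labels. Per the peak names, duplicates and mitochondrial reads were removed and mapping quality 30 was used. The peak caller, a Tn5 shift and a control are not given in the sources used here. A q-value depends on depth, which is unknown, so only percentiles within a list were used.

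GENCODE M1 (NCBIM37, the same build) gave starts, and 0 summits lay beyond a chromosome end. With Python 3.11.15, pandas 2.3.3 and pysam 0.24.0, summits within 1 kb of any annotated start of a gene and within 50 kb of its body were counted for 22367 protein-coding genes. Summits extended by 250 bp were merged into 74669 regions. Genotypes were compared by exact two-sided permutation tests over 6 assignments, adjusted by the Benjamini-Hochberg method over all genes (smallest adjusted p among the 10 genes 0.615). Counting was tested on simulated lists, where 200 of 200 planted genes were recovered. The genes and lists were chosen with earlier results of these data known. Named regions are, per gene, those with the highest mean percentile at a start and away from starts. Alternatives were equal list length, a score above the pooled median of 5.83, other distances, windows and extensions, coding transcripts only, scaling by list length, and leaving out libraries.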

Additional observations from a re-analysis of the deposited data

How the results depend on the processing

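Kdr had a start summit in all lists under every alternative run; Cdh5 and Pecam1 had none in any. With a score above the pooled median, the count of genes with a start summit was 2 in stop cassette replicate 1, 3 in stop cassette replicate 2 and 3 over any list, and regions held by all lists fell to 11, of which 3 were away from starts. These 3 were 10% of the 30 regions away from starts near the genes, beside 12.9% of all regions away from starts. At equal list length stop cassette replicate 2 had 3 genes and any list 4. With 500 bp, stop cassette replicate 1 had 2 genes. Fewer summits enter these settings by construction. The share of all genes with a start summit was not computed for the higher score or for 500 bp. Fli1 gained a start summit with 2 kb, in 2 lists.

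The share of genes whose summit numbers do not overlap between genotypes was 24.9% at equal length and 35.0% per 100000 summits, against 54.2%. Differences in summit numbers reversed at equal length for Kdr (-1), Erg (-0.5), Fli1 (-3) and Sox7 (-1), and per 100000 summits for Pecam1 (-2.30) and Sox18 (-0.142). Leaving out 1 library at a time gave shares of 68.5% to 76.4% for start percentiles (45.6% with all) and 62.1% to 82.9% for summit numbers. A group left with 1 library lacks overlap more often by construction, so the rise over the values with all libraries is not read as a result. Regions away from starts in all lists left numbered 10 to 16, with 16 without wild-type replicate 1. Their share was 15.4% to 22.9%, beside 22.6% to 28.5% of all regions away from starts; without wild-type replicate 1 it was 22.9% beside 28.5%. The Erg start difference ranged from -21.9 to 3.39 percentile points and was 3.39 without wild-type replicate 2.

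Taking replicate numbers as a replicate block, differences in both pairs had the same sign for 64.4% of genes for start percentiles and 68.8% for summit numbers, and the smallest possible p is 0.5. Random signs also match in many genes, so these shares are not read as an effect. Differences between replicates 1 and 2 correlated at 0.198 across 12860 genes between genotypes, but the labels do not tie the numbers together.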

Other observations

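The following was noticed after the lists had been seen and has no test. The body of Cdh5, 42.9 kb long, held no summit in any of the 4 lists. Among the 5543 protein-coding genes at least as long, 326 (5.88%) shared this, and among the 1633 of these with CpG-poor starts 293 (17.9%) did. The other 9 endothelial genes each had a summit within the body in at least 3 lists. Tek, with a body of 135.7 kb, had 3 and 6 with the cassette and 1 and 3 in wild type, and Pecam1, with 96.4 kb, had 2 and 5 with the cassette and 0 and 2 in wild type. In Fli1, with 119.2 kb, the replicate 2 lists held 12 and 6 summits in the body and the replicate 1 lists held 2 each.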
